A study of Mus musculus with 6 samples.

Results

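Neuropeptides are short signalling peptides that neurons and neuroendocrine cells cut from larger precursor proteins, pack into dense-core granules and release. Merkel cells, the touch-sensing neuroendocrine cells of the epidermis, hold such granules and are known from staining of tissue for several of these peptides, which differ between species and body sites. A fixed list of 10 mouse precursor genes was followed here: Cck, Vip, Penk, Npy, Sst, Tac1, Gal, Calca, Nmb and Adcyap1. Members were the rows of the count table with one of these gene names, and all 10 were found among 54532 genes. The label calls them precursors of Merkel cells, but 3 of the 10 had no count in any library and only Cck and Penk had counts in every NCAM-enriched library.

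Smart-seq2, which makes full-length cDNA from little RNA, gave 6 libraries from the dissociated dorsal epidermis of C57BL/6 mice of both sexes, aged 4 weeks. For 3 of them, called NCAM-enriched, DAPI-negative cells (cells that kept out a dye entering dead cells) were bound and sorted by an antibody to polysialylated NCAM, a surface protein of Merkel cells. The other 3, called bulk skin, hold DAPI-negative cells taken without selection by the antibody, so Merkel cells can be among them. The study's methods describe them as epidermal, while the labels read total skin. Fibroblast markers summed to 10458 to 18394 CPM in them, so they cannot be taken as epidermal cells alone. Each library came from 500 sorted events, the labels name no transgene or treatment, and nothing says that replicates came from separate mice, so p-values measure the spread between these libraries, which may be technical.

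Libraries held 1343190 to 4481830 counts, and levels are given as normalised CPM, counts scaled to CPM by the library size after TMM correction, in which 1 count was 0.216 to 0.773 CPM. The Merkel cell label was checked on 9 markers (Atoh1, Sox2, Isl1, Pou4f3, Krt8, Krt18, Krt20, Piezo2 and Chga). All 9 lay higher in the NCAM-enriched group in the fit, and 5 were called, beside 1.04% of all genes tested called higher. The summed CPM of the 9 was 1529, 1602 and 451 in NCAM-enriched libraries 1 to 3 against 132 to 176 in bulk skin. The NCAM-enriched libraries were not pure by these counts and differed from each other. Summed CPM of 7 basal keratinocyte markers was 9898, 7580 and 31095 in NCAM-enriched libraries 1 to 3 against 12341 to 16552 in bulk skin, so library 3 lay above all others. Summed CPM of 10 suprabasal keratinocyte markers was 15122 to 41991 against 2438 to 3375, that of 10 T and NK cell markers 42.0 to 239 against 4609 to 4999, and that of 9 Langerhans and myeloid markers 377 to 562 against 11224 to 19815. Fibroblast markers reached 33094 CPM in NCAM-enriched library 2, with 377 and 41.7 in libraries 1 and 3, against 10458 to 18394 in bulk skin. Mast cell markers reached 1954 CPM in NCAM-enriched library 1, with 3.86 and 3.12 in libraries 2 and 3, against 442 to 2079 in bulk skin.

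Many neuropeptide genes carry a cAMP response element near their start, the site through which CREB and related factors act, and the element was first described in the Sst promoter. The 100 bases before the RefSeq start site (GRCm38.p6) were searched for its core, TGACG or its reverse complement CGTCA, for the 9 members that matched the promoter table (all but Penk). The core stood in 6 of the 9 (Cck, Vip, Sst, Tac1, Calca and Adcyap1) and in 10.5% of all 32851 promoter windows of this length. Members were counted by gene and the background by window. Adcyap1 counted through its first start site, since the window of its other start site held no core. The full palindrome TGACGTCA, which holds both cores overlapping, stood in Sst alone among the members and in 1.15% of all windows. A match describes letters only and does not show binding. The sequences that follow are of 5 of the 6 members that hold the core: the one with the most counts (Cck), 1 whose counts lie mostly in a single library (Adcyap1), the one with counts in bulk skin alone (Calca), and the 2 of these 6 with none (Vip, and 30 bases of Sst). They are read from 5′ to 3′ on the gene's strand and end next to the start site except for Sst, with the core in capitals.

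Cck (chr9:121495695-121495794, minus strand): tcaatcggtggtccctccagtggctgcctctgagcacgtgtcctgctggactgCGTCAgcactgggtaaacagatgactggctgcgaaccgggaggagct
Adcyap1, first of its 2 start sites (chr17:93198917-93199016, plus strand): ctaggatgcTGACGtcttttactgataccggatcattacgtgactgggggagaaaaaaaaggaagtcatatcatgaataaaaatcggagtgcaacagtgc
Calca (chr7:114636358-114636457, minus strand): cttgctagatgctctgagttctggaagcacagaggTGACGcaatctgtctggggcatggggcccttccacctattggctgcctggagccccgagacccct
Vip (chr10:5639118-5639217, plus strand): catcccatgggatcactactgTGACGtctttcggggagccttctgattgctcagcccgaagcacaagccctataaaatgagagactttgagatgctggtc
Sst (chr16:23890874-23890903, minus strand): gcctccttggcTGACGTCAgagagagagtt

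The core begins 47 bases before the start in Cck, 43 in Tac1 (not printed), 48 in Sst, 65 in Calca, 79 in Vip and 91 in Adcyap1. Members that hold it include both the one with the most counts (Cck) and 2 with none (Vip and Sst).

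Detection was taken as at least 5 counts. By this measure the NCAM-enriched libraries held 3, 2 and 4 members and the bulk skin libraries 5, 4 and 4. Libraries differed in depth, and after scaling to the smallest library these were 3, 2 and 3 against 4, 3 and 4. The names that follow are without scaling. NCAM-enriched library 1 held Cck, Penk and Adcyap1, library 2 held Cck and Penk, and library 3 held Cck, Penk, Nmb and Tac1. Every bulk skin library held Cck, Penk, Nmb and Calca, and bulk skin library 1 also held Adcyap1 with exactly 5 counts. Each group thus detected 5 members in at least 1 library, 4 of them in common. Cck and Penk gave 93.7% of the 4317 counts of all members, and the other 8 members 273 counts together.

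**Figure D1:**
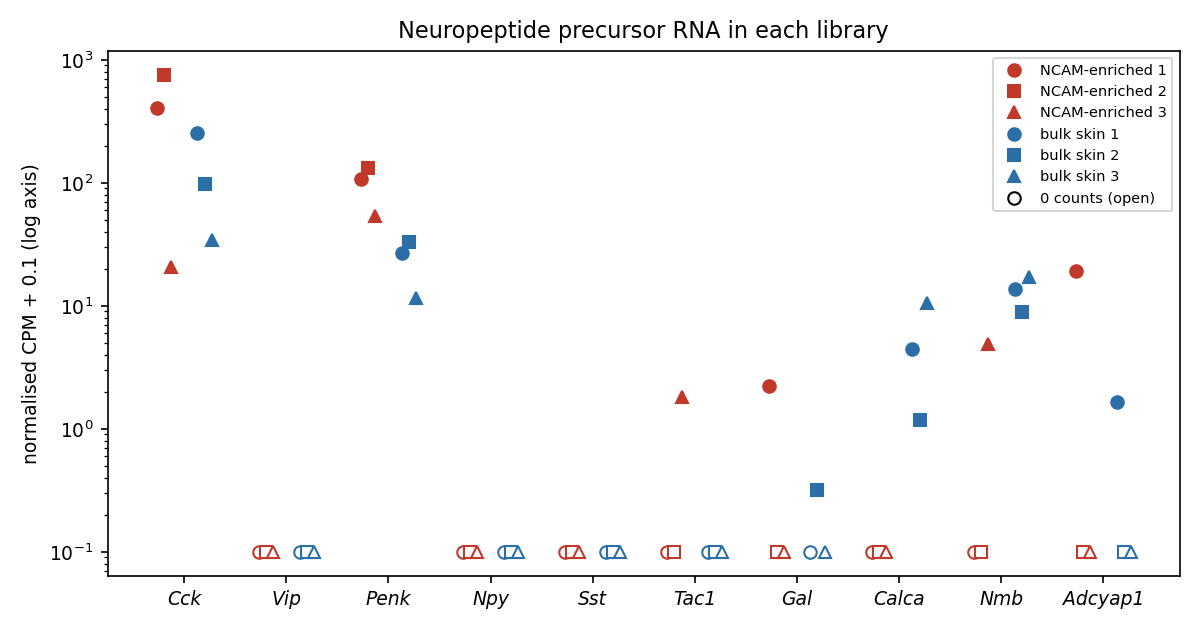
Normalised CPM of each of the 10 precursors in each library, with 0.1 added, on a log axis; red is NCAM-enriched, blue is bulk skin, the shape gives the replicate number and open symbols have 0 counts. Cck and Penk have counts in all 6 libraries, Vip, Npy and Sst in none, and the other members are at 0 in at least 1 library.

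Cck encodes cholecystokinin, a gut and brain peptide (gene on chromosome 9, 121489824 to 121495694, minus strand, GRCm38). It was the most abundant member in both groups but varied widely between libraries of the same group. NCAM-enriched libraries 1 to 3 gave it 762, 981 and 72 counts, and bulk skin libraries 1 to 3 gave it 812, 448 and 125. Scaled to depth this was 405, 758 and 20.4 CPM against 252, 96.8 and 34.3 CPM. NCAM-enriched libraries 1 and 2 lay above all bulk skin libraries and library 3 below all of them, so the groups overlapped. The highest and lowest library differed 37.1-fold within the NCAM-enriched group and 7.36-fold within bulk skin. The group means were 394 ± 369 and 128 ± 112 CPM (SD, n = 3). The fitted log2 fold change of 1.62 ± 1.07 (SE) did not exceed the spread between replicates (adjusted p = 0.473 by edgeR's quasi-likelihood test). Leaving out bulk skin library 1 moved it to 2.50 and leaving out NCAM-enriched library 2 to 0.71, neither of them called.

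Penk encodes proenkephalin, the precursor of the opioid peptides Met- and Leu-enkephalin, which have been described in rodent Merkel cells (chromosome 4, 4133531 to 4138819, minus strand). It varied least between NCAM-enriched libraries of the members tested, with counts of 203, 170 and 190 in the NCAM-enriched libraries and 86, 153 and 42 in bulk skin. Its levels were 108, 131 and 53.9 CPM against 26.7, 33.1 and 11.5 CPM, so every NCAM-enriched library lay above every bulk skin library. The means were 97.7 ± 39.7 and 23.8 ± 11.1 CPM (SD, n = 3), and the log2 fold change was 2.03 ± 0.58 (SE). It missed the threshold in edgeR (adjusted p = 0.0926, with alternatives ranging from 0.0215 to 0.292) and passed it in DESeq2 (adjusted p = 0.0215). Without NCAM-enriched library 3 it was called by edgeR at a log2 fold change of 2.26 (adjusted p = 0.0439). A noncoding gene on the other strand, A830012C17Rik, shares 14.3% of the exonic bases of Penk and had 5 counts, all of them in bulk skin.

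Cck and Penk were set beside the Merkel cell markers in each library. Within the NCAM-enriched group all 3 were highest in library 2 and lowest in library 3. Cck stood at 26.5, 47.3 and 4.53 CPM per 100 CPM of the summed markers in the NCAM-enriched libraries, against 143, 66.6 and 25.9 in bulk skin. Penk stood at 7.06, 8.20 and 12.0 against 15.1, 22.7 and 8.71. Relative to the marker sum neither was higher in the NCAM-enriched libraries, and the groups overlapped for both. These ratios are not levels per Merkel cell, since the sum does not count cells. In bulk skin libraries 1 to 3 Krt8 and Krt18 gave 49.1 and 58.1 of 176 CPM, 21.8 and 69 of 145, and 30.2 and 39.2 of 132. On the same scale Pam, whose enzyme puts the amide end on peptides, stood at 22.1, 39.2 and 28.6 against 52.8, 102 and 49.0, lower in the NCAM-enriched libraries. Calcb, for beta-CGRP, stood at 4.62, 6.22 and 10.3 against 11.4, 10.3 and 4.15. Chga, the granule protein chromogranin A and itself part of the marker sum, stood at 10.9, 18.4 and 5.73 against 1.23, 1.49 and 0. Bulk skin library 1 had 252 CPM of Cck beside 2.17 CPM of Chga. Which cells the Cck RNA of bulk skin came from was not tested. Suprabasal keratinocyte markers lay higher in the NCAM-enriched group too (6 of 10 called, beside 1.04% of all genes tested). The part of these keratinocytes in the values of Cck and Penk was not tested. In libraries of pooled cells, fewer cells of a type and less RNA per cell cannot be told apart.

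**Figure D2:**
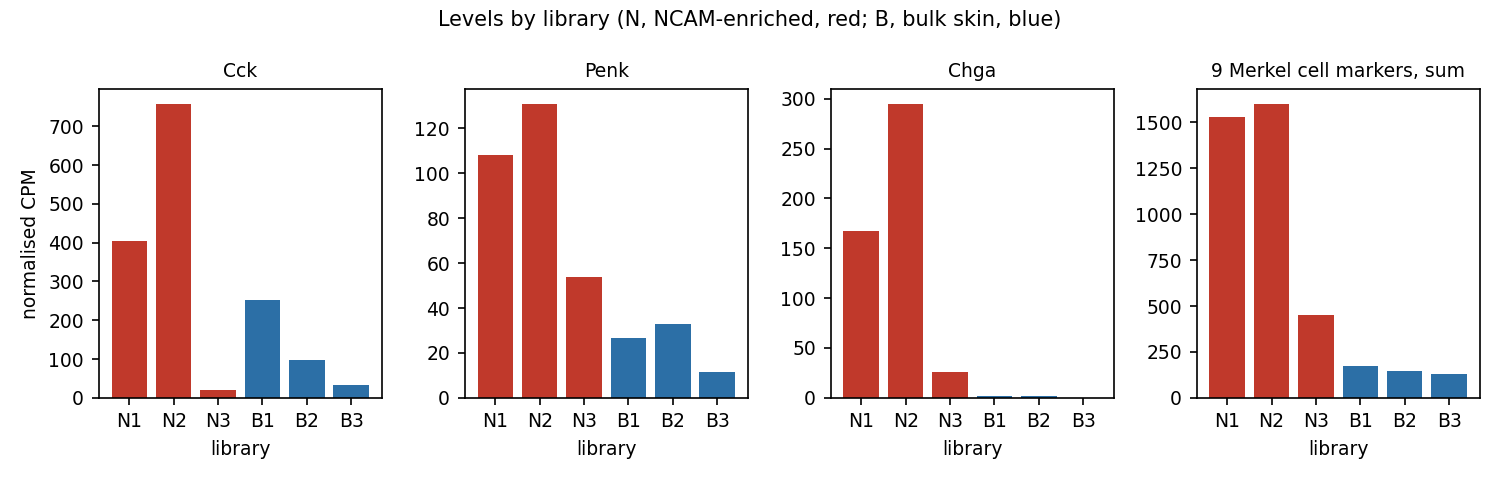
Normalised CPM of Cck, Penk, Chga and the sum of 9 Merkel cell markers (Chga is one of them) in each library; N1 to N3 (red) are NCAM-enriched and B1 to B3 (blue) bulk skin, and each panel has its own axis from 0. NCAM-enriched library 3 is the lowest of its group in all 4 panels, below every bulk skin library for Cck and above every one for the others, and bulk skin library 1 has 252 CPM of Cck but 2.17 CPM of Chga.

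Nmb encodes neuromedin B, a bombesin-like peptide that acts in itch and smooth muscle (chromosome 7, 80902227 to 80905076, minus strand). It went the other way, with 0, 0 and 17 counts in the NCAM-enriched libraries and 44, 41 and 62 in bulk skin. The levels were 0, 0 and 4.82 CPM against 13.7, 8.86 and 17 CPM, and the groups did not overlap. It entered the test through bulk skin, the group where it is high. The log2 fold change was -2.87 ± 1.56 (SE; edgeR adjusted p = 0.371, DESeq2 adjusted p = 0.185), not beyond the spread between replicates. Summed over each group, 147 counts against 17 made it 5.04-fold lower after scaling (95% counting interval 3.04 to 8.89), and 3.62-fold to 6.08-fold when any library but NCAM-enriched library 3 was left out. The interval treats reads as independent and leaves out the spread between libraries, so it is no test of the groups. NCAM-enriched library 3 holds all 17 counts, so leaving it out sets that group to 0 by construction. The bound was then at least 13.5-fold, taking 3 counts over the group as the floor (edgeR adjusted p = 0.0431). Sec11a, a signal peptidase gene on the same strand, shares 20.6% of the exonic bases of Nmb. It was itself lower, with 854 counts against 2991, raw counts that are not scaled to the unequal depth of the groups. How reads of the shared bases were assigned is not given.

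Calca encodes both calcitonin and, by alternative splicing, alpha-CGRP, the calcitonin gene-related peptide of sensory nerve endings, and counts per gene cannot tell the products apart (chromosome 7, 114631478 to 114636357, minus strand). It had 14, 5 and 38 counts in bulk skin libraries 1 to 3 and none in the NCAM-enriched group. Bulk skin library 3 held most of them, at 10.4 CPM against 4.35 and 1.08 CPM in libraries 1 and 2. Calca was therefore at least 11.1-fold lower in the NCAM-enriched group by the same floor. Leaving out bulk skin library 3 put this bound at 5.41-fold, leaving out bulk skin library 2 at 16.9-fold and leaving out NCAM-enriched library 3 at 5.25-fold. It did not pass the count filter of the main test. DESeq2 called it (adjusted p = 0.0448), but not when genes of low counts were all kept (adjusted p = 0.0757), nor did edgeR on all genes with at least 1 count (adjusted p = 0.190).

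Summed markers of T and NK cells, of Langerhans and myeloid cells and of Schwann cells lay in the same direction as Nmb and Calca. Those of mast cells overlapped between the groups. Of 10 T and NK cell markers 8 were called lower and of 9 Langerhans and myeloid markers 8, beside 1.55% of all genes tested. Cd3d, Cd2 and Cd86 were at 0 counts throughout the NCAM-enriched group. The 8 Schwann cell markers summed to 112 to 166 CPM in the NCAM-enriched group and 235 to 297 CPM in bulk skin, without overlap, and none was called. The 10 sensory neuron markers lay the other way, since their summed CPM was 138 to 186 in the NCAM-enriched group and 69.9 to 95.1 in bulk skin. Mrgprd had 0 counts in all 6 libraries, and Scn10a and Nefm had 0 in bulk skin. The part of any of these cells in the results for Nmb and Calca was not tested.

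The remaining members with counts each rested on 1 or 2 libraries. Adcyap1, the precursor of the pituitary adenylate cyclase-activating peptide PACAP (chromosome 17, 93199017 to 93206537, plus strand), had 36 counts (19.1 CPM) in NCAM-enriched library 1, 5 (1.55 CPM) in bulk skin library 1 and 0 in the other 4 libraries. Gal, the galanin precursor, had 4 counts in NCAM-enriched library 1 and 1 in bulk skin library 2, a ratio of 6.86 after scaling (95% counting interval 0.679 to 338), which became 14.5 without NCAM-enriched library 3, while without NCAM-enriched library 1 that group had none. Tac1, the precursor of substance P and neurokinin A, had 6 counts in NCAM-enriched library 3 and 0 elsewhere. Their groups overlapped at 0, and edgeR on all genes with at least 1 count gave adjusted p-values of 0.414, 0.555 and 0.393. These counts are PCR copies without molecular identifiers, so a handful in 1 library may come from very few molecules.

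Vip, which encodes vasoactive intestinal peptide, a peptide long described in Merkel cells of several species, had no count in any library. The same was true of Npy, for neuropeptide Y, and Sst, for somatostatin. A count of 0 allows up to 3 counts over the group, or 0.448 CPM in the NCAM-enriched and 0.261 CPM in the bulk skin group (0.649 to 2.32 CPM in a single library). These limits cover counting error only. RNA of these genes was thus not detectable at this depth, at levels below those at which Penk was read in every library.

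Levels between genes were compared as CPM per kb of exonic length. In the NCAM-enriched group the order was Cck (302 ± 283, SD, n = 3), Penk (59.8 ± 24.3), Nmb (2.03 ± 3.51), Adcyap1 (1.69 ± 2.92), Gal (0.899 ± 1.56) and Tac1 (0.167 ± 0.289). The last 4 did not differ from each other beyond their spread, and Cck and Penk changed places in library 3, where Cck had 28.4% and Penk 59.7% of the members' summed CPM per kb. In bulk skin the order was Cck (97.9 ± 85.9), Nmb (16.6 ± 5.16), Penk (14.5 ± 6.78) and Calca (3.14 ± 2.81), followed by Adcyap1 (0.137 ± 0.237) and Gal (0.0914 ± 0.158). Nmb and Penk lay within their spread of each other there. In bulk skin library 3 the share of Nmb reached 35.1% and that of Calca 10.2%, against at most 10.5% and 1.12% in the other bulk skin libraries.

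**Figure D3:**
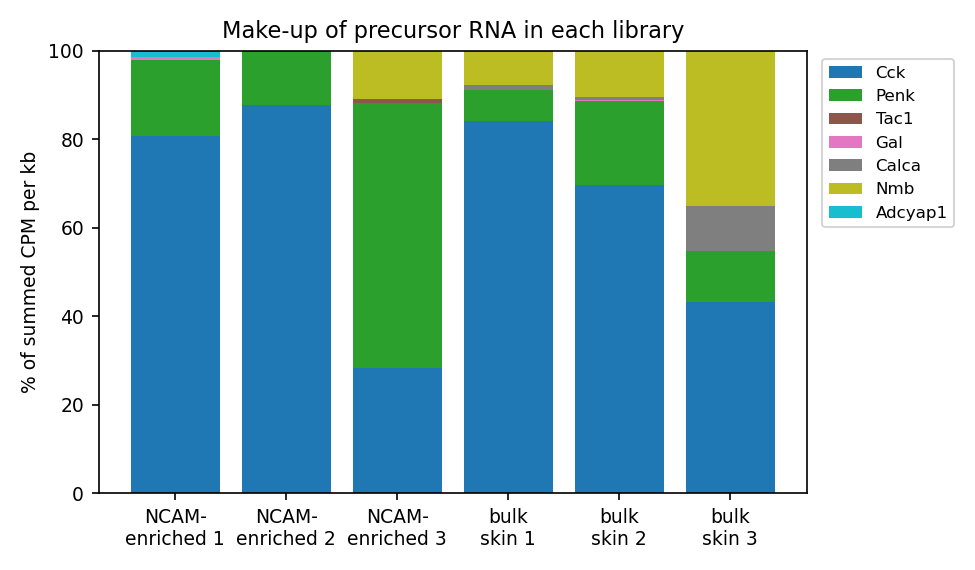
Share of each precursor in the summed CPM per kb of exonic length of the 10 members in each library, as stacked bars from 0 to 100%. Cck takes 80.8% and 87.8% in NCAM-enriched libraries 1 and 2 and 28.4% in library 3, where Penk takes 59.7%.

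Over all 10 members, 3 (Cck, Penk and Nmb) passed the count filter and edgeR called none of them in either direction, with 1 (Penk) at an unadjusted p under 0.05. Across the 13157 genes tested edgeR called 1.04% higher and 1.55% lower. DESeq2 called Penk higher and Calca lower, where it called 7.68% of 16401 genes higher and 6.67% lower, and limma-voom called no member. The groups did not overlap for 2 of the 3 tested members (Penk and Nmb), against 30.4% of all genes tested, and with so few members this share is no result about the list. The median log2 fold change of the 3 was 1.62, beside -0.07 over all genes tested.

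**Figure D4:**
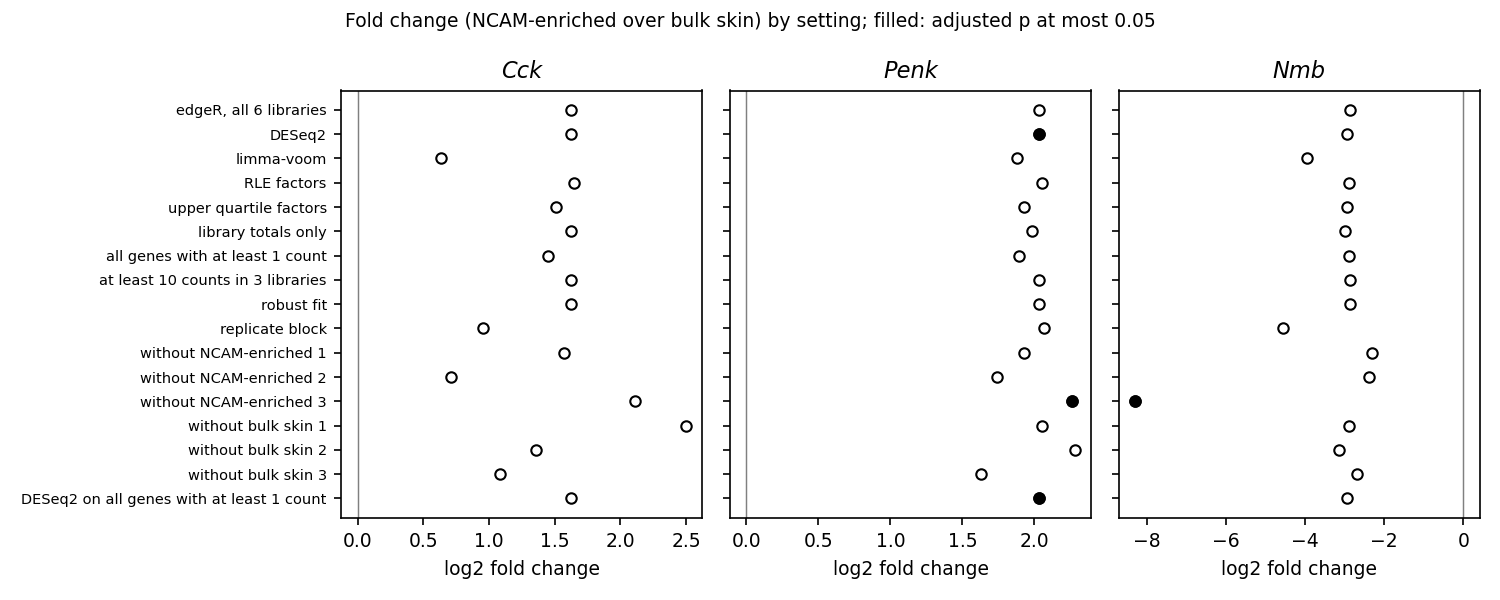
Fitted log2 fold change (NCAM-enriched over bulk skin) of Cck, Penk and Nmb with edgeR on all 6 libraries and under 16 other settings; filled points have an adjusted p of at most 0.05. All points of Cck and Penk lie above 0 and all of Nmb below, Penk is filled in 3 settings, Nmb in 1 and Cck in none.

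Genes whose levels ran most like those of a tested member over the 6 libraries were sought among the 12234 genes that averaged 5 CPM or more. For Cck these were Armcx1 and Kif13b (Pearson's r of log2 CPM 0.983 and 0.974), for Penk Ssrp1 and Spop (0.991 and 0.991), and for Nmb Fgf7 and Gm48236 (0.999 and 0.998). With 6 libraries in 2 groups many genes come this close: 121, 288 and 676 genes had an r of at least 0.9 with Cck, Penk and Nmb. The values describe shared libraries and shared depth and carry no test.

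Among 54 other neuropeptide and hormone precursors, 19 had no count and 8 passed the filter. None was called by edgeR, limma-voom called none, 1 had an unadjusted p under 0.05, and their median log2 fold change was -0.45. DESeq2 called Calcb higher and Rln3, for relaxin-3, lower, beside 7.68% and 6.67% of all genes. Both are named here after their values were seen. Calcb, for beta-CGRP, a near relative of Calca, had 133, 129 and 164 counts after enrichment for NCAM and 65, 69 and 20 in the bulk. Its levels of 70.7, 99.7 and 46.5 CPM lay above the 20.2, 14.9 and 5.48 CPM of bulk skin. They did not overlap, as for 30.4% of all genes tested. The log2 fold change was 2.41 ± 0.66 (SE; edgeR adjusted p = 0.0844, DESeq2 adjusted p = 0.00819). The NCAM-enriched libraries thus held reads of the beta gene and none of the alpha gene, while bulk skin held both, and reads from stretches that the genes share are uncertain between them. Nucb2, the precursor of nesfatin-1 and the most abundant of the list over both groups together, had 66.2 ± 62.6 against 38.3 ± 11.1 CPM (SD, n = 3), with 138 CPM in NCAM-enriched library 2, and its log2 fold change of 0.78 (edgeR adjusted p = 0.614) became -0.35 without that library.

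Of 19 genes that cut and pack precursors 13 were tested, and edgeR called 2 higher and 1 lower. Over all genes tested the shares were 1.04% and 1.55%. In the fit 10 of the 13 lay above 0, beside 6270 of all 13157 genes tested, and their median log2 fold change was 2.43, with no test of the list. Both values are in part set by the count filter and are no result about the list. Cadps, Chga (7, 10 and 0 counts in bulk skin) and Pcsk1n (0, 12 and 0) passed it through the NCAM-enriched group, where they are high. Chga is also one of the 9 Merkel cell markers. The 2 higher were Chga and Cadps, which primes granules for release; Cadps had 20.7, 41.7 and 11.9 CPM against 0 in every bulk skin library, and so entered the test through the group where it is high (adjusted p = 0.0403), and Chga an adjusted p of 0.0292. Both calls were lost when NCAM-enriched library 1 or any single bulk skin library was left out. Pam, the most abundant over both groups together, makes the amide end that CCK, galanin and CGRP need for activity. It had 337, 627 and 129 CPM against 93.1, 148 and 64.7 CPM and was not called (log2 fold change 1.84 ± 0.59 SE, adjusted p = 0.130). The prohormone convertase gene Pcsk2 had 130, 41.7 and 16.2 CPM against 2.79, 13.6 and 4.94 CPM. These did not overlap, as for 30.4% of all genes tested. The log2 fold change of Pcsk2 was 3.12 ± 0.97 (SE, edgeR adjusted p = 0.119, DESeq2 adjusted p = 0.0142). Cpe, for the carboxypeptidase that trims the cut peptides, had 396, 341 and 117 against 108, 121 and 89.7 CPM (log2 fold change 1.42, edgeR adjusted p = 0.148). Pcsk1n, Pcsk2 and Cpe were chosen after their values were seen. Qpct, for the enzyme that makes the pyroglutamate start found on some peptides, fell: the 3 bulk skin libraries had 221, 212 and 291 counts of it and the NCAM-enriched ones 0, which makes it at least 141-fold lower (edgeR adjusted p = 0.0140), though it entered the test through bulk skin alone. Leaving out NCAM-enriched library 3 put this bound at 66.7-fold, and leaving out any single bulk skin library ended the call.

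Receptors of the members' peptides were sparse. Of 32 receptor genes and receptor partners 14 had no count in any library, among them the CCK-B receptor gene Cckbr and the delta opioid receptor gene Oprd1, and 6 passed the filter. None was called by edgeR and none had an unadjusted p under 0.05. The calls of limma-voom (1, Ramp2) and DESeq2 (1, Vipr2) were both lower, where DESeq2 called 6.67% of all genes lower. The median log2 fold change of the 6 was 0.22. Ramp1, the partner that turns Calcrl into the CGRP receptor, was the most abundant over both groups together, with 0, 130 and 15.9 CPM in the NCAM-enriched libraries and 239, 128 and 135 CPM in bulk skin. NCAM-enriched library 2 lay within the range of bulk skin, and the log2 fold change was -1.80 ± 1.28 (SE; edgeR adjusted p = 0.508). It was called when NCAM-enriched library 2 was left out (-4.29, adjusted p = 0.0439) and when all genes with at least 1 count were kept (-1.99, adjusted p = 0.0115). Calcrl itself had 9.56, 17 and 6.53 CPM against 15.8, 10.2 and 17.8 CPM, with overlap. Vipr2, a receptor of VIP and PACAP, had 2, 37 and 99 counts in the bulk skin libraries and none after enrichment. Npy1r, a receptor of neuropeptide Y, had 12, 41 and 0 counts against 6, 15 and 0, a difference within the spread (log2 fold change 2.84 ± 1.94 SE, edgeR adjusted p = 0.489). Cckbr, Oprd1, Ramp2, Calcrl, Vipr2 and Npy1r were chosen after their values were seen.

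Of 15 peptide-degrading enzymes 13 were tested and edgeR called none, with 4 at an unadjusted p under 0.05 and a median log2 fold change of -0.26. DESeq2 called Ide and Cpm higher (Cpm is named after its values were seen), beside 7.68% of all genes, and limma-voom called Ide. Ide, for insulin-degrading enzyme and the most abundant over both groups together, had 673, 535 and 360 CPM against 178, 212 and 235 CPM. These did not overlap, as for 30.4% of all genes tested. The log2 fold change of Ide was 1.33 ± 0.37 (SE, edgeR adjusted p = 0.0878, DESeq2 adjusted p = 0.0339).

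**Figure D5:**
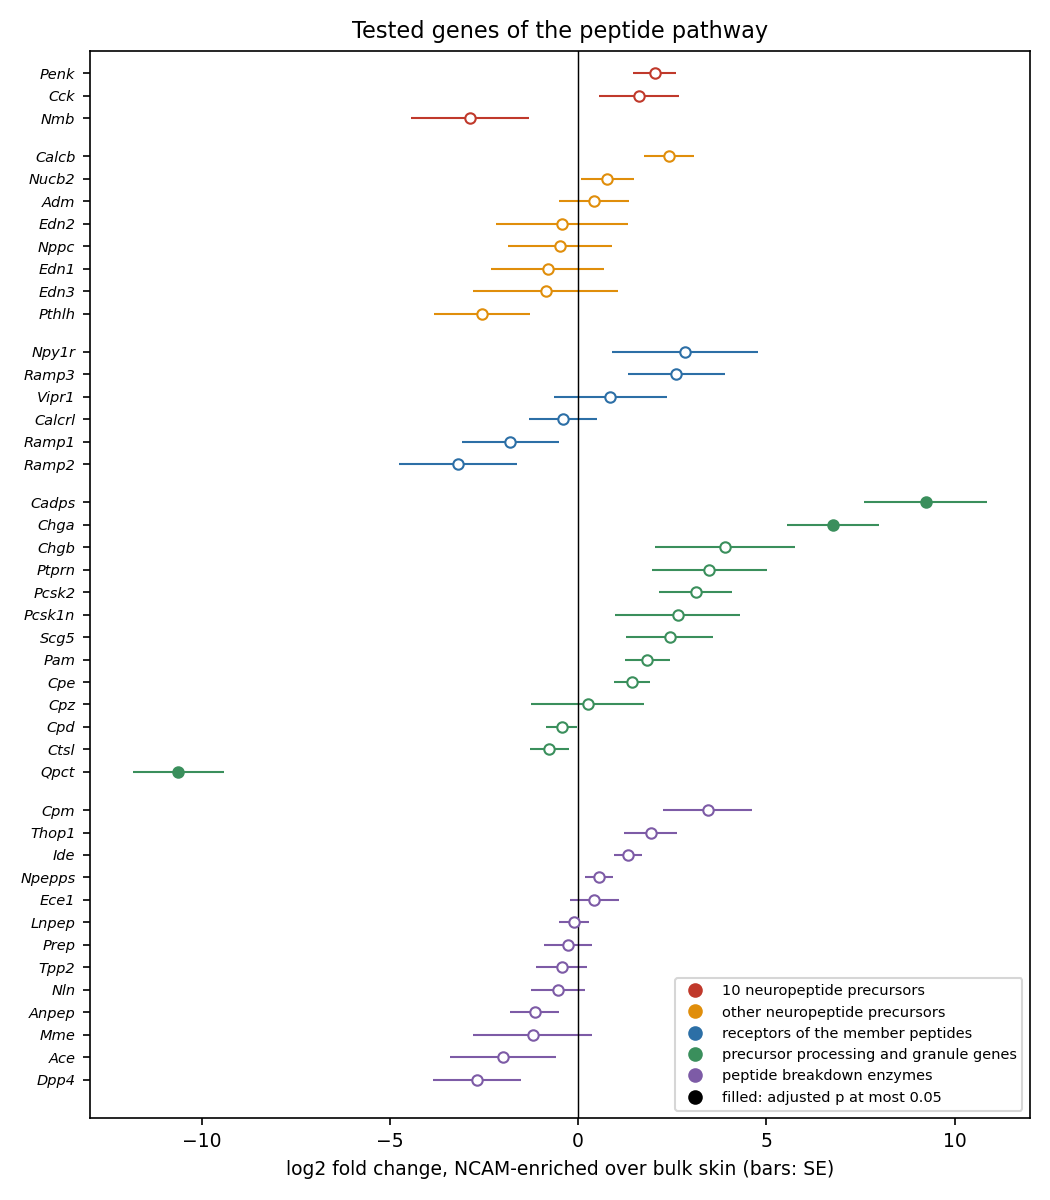
Fitted log2 fold changes (NCAM-enriched over bulk skin) with their SE for every tested gene of the 10 precursors and the 4 related lists, coloured by list; filled points have an edgeR adjusted p of at most 0.05. Cadps, Chga and Qpct are the filled points, and the fitted values of Cadps and Qpct, each at 0 counts in 1 group, depend on the prior count of the fit.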

How the data were processed

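The authors deposited raw read counts per gene for 6 libraries. According to the study's methods, bbduk and bbmap cleaned the reads before STAR placed them on GRCm38, and featureCounts gave the totals per gene. Which annotation release and which strand setting were used is not given in the sources used. Smart-seq2 does not mark strand. Values were whole numbers in every library.

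edgeR 4.0.16 (R 4.3.3) was run on the counts of all 13157 genes that passed filterByExpr, with TMM factors and the quasi-likelihood F-test, with the Benjamini-Hochberg adjustment and a threshold of 0.05. SE was derived from the fold change and its F statistic. Alternatives were DESeq2 1.42.0, limma-voom (limma 3.58.1), other factors and filters, a robust fit, the replicate number as a block, leaving out each library, and a DESeq2 run that kept every gene with a count, which was chosen after seeing the data. Depth and its precision are given as CPM per count. Positions and exonic lengths came from GENCODE M21, which holds 54495 of the 54532 gene IDs, and promoters from RefSeq (GRCm38.p6). Fold bounds use a floor of 3 counts over a group. Counting intervals are exact binomial (95%) on pooled counts and leave out the spread between libraries.

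Members and lists were chosen with earlier results of these data known. Named were the 10 members, called genes of each other list, the gene of each list with the highest mean CPM over both groups, and the 2 genes most like each tested member. Genes named outside this rule are marked in the text. Protein features, planned for the members, were not computed. Figures were drawn with matplotlib 3.10.9.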

Additional observations from a re-analysis of the deposited data

How the results depend on the processing

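Cck, Penk and Nmb kept their sign under all 16 alternatives, with log2 fold changes from 0.63 to 2.50, from 1.63 to 2.28 and from -8.29 to -2.31, and Cck was called under none of them (adjusted p from 0.0553 to 0.757). With DESeq2 the calls were 1 member higher and 1 lower, 1 other precursor higher and 1 lower, 1 receptor lower, 3 processing genes higher and 1 lower, and 2 breakdown enzymes higher. With limma-voom they were 1 receptor lower, 1 processing gene higher and 1 lower, and 1 breakdown enzyme higher. With every gene of at least 1 count kept in edgeR they were 1 other precursor lower (Pyy, named after its values were seen), 3 receptors lower, 5 processing genes higher and 1 lower, and 1 breakdown enzyme higher and 1 lower. DESeq2 on all such genes called 1 member (Penk) higher, and among the lists Calcb, Rln3, Vipr2, Pcsk2, Qpct, Chga, Cadps and Cpm. Without a single library the calls among members numbered 0 to 1 higher and 0 to 1 lower, other precursors from 0 to 1 higher, receptors from 0 to 1 lower, processing genes 0 to 5 higher and 0 to 1 lower, and breakdown enzymes 0 to 1 higher and 0 to 1 lower. Nucb2 ran from -0.35 (without NCAM-enriched library 2) to 1.14 over the fits that leave out a library. The cause was not tested. The number of members detected per library stayed within 1.5 times of its value at a minimum of 1 or 10 counts and after scaling to the smallest library.

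The groups share replicate numbers, but same-numbered libraries did not deviate from their group means together (Pearson's r across genes 0.0226, 0.00025 and -0.00436), so no pairing was assumed. With the replicate number as a block 1 processing gene (Chga) was called higher instead of 2, the log2 fold change of Cck was 0.95, that of Penk 2.07 and that of Nmb -4.55, and no member was called.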
